A study of Mus musculus with 8 samples.

Results

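The genes described here are 48 mouse genes that encode writers, erasers, readers and remodellers of chromatin and DNA methylation, taken from the 39179 genes listed in each count table. They were given as a list of gene symbols, and were sorted into 9 classes: DNA methylation, Polycomb repressive complex 2 (PRC2), Polycomb repressive complex 1 (PRC1), Trithorax and H3K27 demethylases, H3K4 demethylases, H3K9 and H3K79 methyltransferases, deacetylases with a corepressor, acetyltransferases, and SWI/SNF with other remodellers. All 48 were found by Ensembl ID in all 8 tables, and all 48 passed the filter on low counts that left 11475 genes for testing.

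The study addressed what ectopic Bach2 does to the transcriptome of helper T cells that recognise one peptide. T cells came from Smarta mice, which carry a transgenic T cell receptor, crossed to CreERT2 mice. They were transduced with a retrovirus and transferred into C57BL/6 recipients, and the recipients were immunized under the skin with nitrophenol and the GP61-80 peptide, both coupled to mouse serum albumin. There were 4 groups of 2 libraries each: Bach2 Tfh (inducible Bach2 vector), empty-vector Tfh, Bach2 non-Tfh and empty-vector non-Tfh. Every group received tamoxifen on day 5, which switched on the vector's Bach2 where the vector held it, and transferred Thy-1.1+ cells were sorted 18 hours later from pooled inguinal lymph nodes, as CD44hi CXCR5+ PD-1+ cells (Tfh) or as CXCR5- PD-1- cells (non-Tfh). Neither the promoter behind CreERT2 nor the age of the mice is stated in the sources at hand. Since both vectors were compared after tamoxifen and transduction, what these treatments do themselves is common to all 8 libraries. The labels do not say whether the 2 libraries of a group came from separate mice or transfers, so p-values measure only the spread between these libraries.

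T follicular helper (Tfh) cells move into B cell follicles and help B cells, and the other activated helper cells (non-Tfh) do not carry the follicular receptors. Chromatin modifiers set how readily genes can be read: DNA methyltransferases add methyl groups to cytosines and Tet enzymes oxidise them, PRC2 methylates histone H3 at lysine 27 and PRC1 ubiquitinates histone H2A, and both Polycomb complexes keep genes silent, while Trithorax enzymes methylate histone H3 at lysine 4 and keep genes active. Acetyltransferases and deacetylases add and remove acetyl groups on histone tails, and remodellers use ATP to move nucleosomes. In T cells these enzymes are known for fixing helper cell fates, with Ezh2 and Tet2 among those known to shape Tfh differentiation in mice. Bach2 is a repressor of the basic leucine zipper family that restrains effector differentiation of lymphocytes.

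The 8 libraries held 7862879 to 9889859 counts and 14689 to 15167 detected genes, with 0.860% to 1.26% of counts on mitochondrial genes and TMM factors of 0.985 to 1.01. Values below are CPM, each gene's counts divided by its library's total after TMM scaling. Fold changes are log2, with the group named first on top. Bach2 itself, the targeted gene, had 121 and 135 CPM in Bach2 Tfh cells, against 11.2 and 14.0 CPM in empty-vector Tfh cells. It had 130.4 and 157 CPM in Bach2 non-Tfh cells, against 24.8 and 28.9 CPM in empty-vector non-Tfh cells. Cxcr5, a sorting marker, was at 576 CPM or more in each Tfh library, and the genes for Cd3 and Cd4 were detected in all libraries. The B cell markers Ms4a1, Cd79a, Cd79b, Pax5, Ebf1 and Cr2 did not exceed 4.69 CPM in any library, while Cd22 was at 157 to 230.1 CPM in Tfh and 77.7 to 124 CPM in non-Tfh libraries. Of 4 markers of stroma and endothelium, 3 were detected, with sums of 229 to 281 CPM in Tfh and 176 to 205 CPM in non-Tfh libraries. Pecam1 gave nearly all of each sum, at 228 to 280 CPM in Tfh and 176 to 204 CPM in non-Tfh libraries, and the other markers were near 0. Of 3 NK cell markers, 2 were detected, with summed levels of 100.3 and 90.3 CPM in Bach2 Tfh and 65.2 and 61.7 CPM in empty-vector Tfh libraries, against 20.0 to 24.3 CPM in Bach2 non-Tfh and 11.7 to 22.0 CPM in empty-vector non-Tfh libraries. Klrb1c gave most of each sum, at 93.8 and 85.2 CPM in Bach2 Tfh and 62.8 and 54.4 CPM in empty-vector Tfh libraries, and Ncr1 was at 0 counts in all. The part of other cells in the results below was not tested.

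Per kilobase of exon, the members' mean levels over the 8 libraries ran from 0.323 CPM per kb for Tet1 to 74.6 CPM per kb for Hdac1. Hdac1, a class I deacetylase of several repressor complexes, was followed by Suz12, the PRC2 scaffold, at 35.9 CPM per kb and by Rnf2, the main PRC1 ubiquitin ligase, at 28.1 CPM per kb. In the other classes the member with the highest level per kb was Kdm1a (26.5 CPM per kb), Smarca4 (26.3 CPM per kb), Ehmt2 (17.4 CPM per kb), Kdm6a (16.5 CPM per kb), Ep300 (6.70 CPM per kb) and Dnmt3a (4.88 CPM per kb). At the low end stood Kdm6b at 1.17 CPM per kb and Suv39h2 at 1.23 CPM per kb, whose counts per library were few and whose fold changes had wide errors. Summed over the 48 members, the level was 4547 and 4803 CPM in Bach2 Tfh libraries and 4396 and 4266 CPM in empty-vector Tfh libraries. It was 4260.3 and 4651 CPM in Bach2 non-Tfh libraries and 4099.8 and 4214 CPM in empty-vector non-Tfh libraries, so the sums of the Bach2 group lay above those of the empty-vector group in both cell types. In bulk libraries such as these, more or fewer cells of a kind and more or less RNA per cell cannot be told apart.

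**Figure D1:**
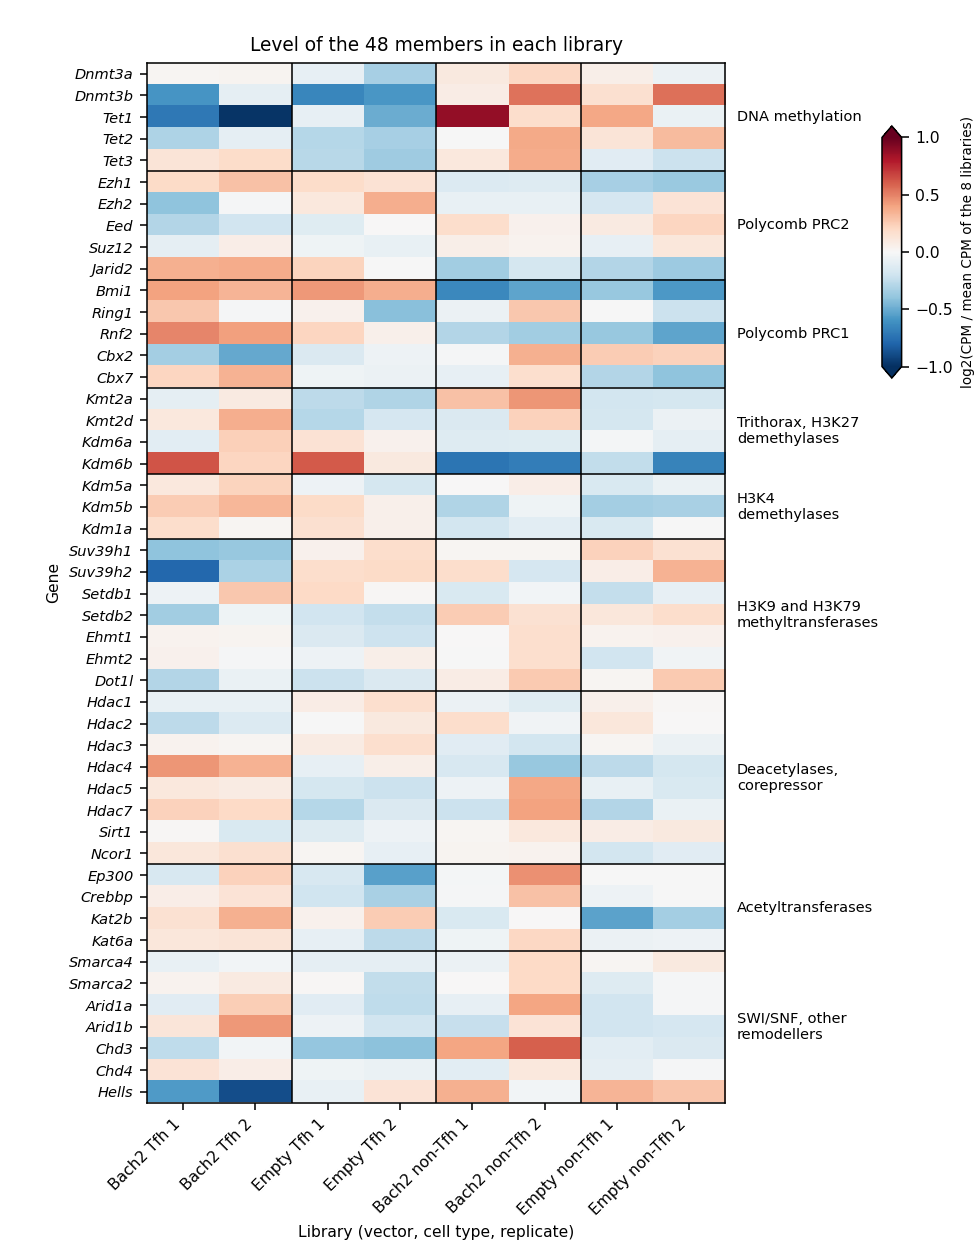
Level of each of the 48 members (rows, by class) in each of the 8 libraries (columns), as log2 of CPM over the gene's mean CPM of the 8 libraries; red is above and blue below that mean. Bmi1, Rnf2, Jarid2 and Ezh1 are red in the 4 Tfh libraries and blue in the 4 non-Tfh libraries, with the exception of Jarid2 in empty-vector Tfh replicate 2, which is near the mean, and Hells is darkest blue in the 2 Bach2 Tfh libraries.

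The first question is whether Bach2 changed these genes within each cell type. In Tfh cells 1 of the 48 members passed the threshold (adjusted p below 0.05 over all tested genes in edgeR's quasi-likelihood test): Hells, a remodeller needed for DNA methylation of repeats, fell. Among non-Tfh cells, the NuRD remodeller Chd3 and the histone H3K4 methyltransferase Kmt2a rose, and no member fell. Averaged over both cell types, 4 members rose (Tet3, Kmt2a, Chd3 and Cbx7) and 2 fell (Hells and Suv39h1). Each of these changes was smaller than 1 on the log2 scale.

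These counts are to be read against all 11475 tested genes. In Tfh cells 1.71% of all tested genes passed (0.549% higher and 1.16% lower), and 1 of 48 members, or 2.08%, is close to that share. In non-Tfh cells the share was 0.871% of all tested genes (0.253% higher and 0.619% lower), against 4.17% of the members. For the mean of both vector effects it was 5.27% (2.37% higher and 2.9% lower), against 12.5% of the members. That mean uses the same libraries as the single comparisons and adds no independent evidence to them.

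Over all 48 members, those called included, the vector effects were mostly positive. The median log2 fold change of the 48 was 0.14 in Tfh cells and 0.07 in non-Tfh cells, where the median of all tested genes was -0.00054 and 0.00072. In Tfh cells it was 0.089 without empty-vector Tfh replicate 2 and 0.085 without Bach2 Tfh replicate 2. In non-Tfh cells it was 0.15 without Bach2 non-Tfh replicate 1, 0.0125 without Bach2 non-Tfh replicate 2 and 0.128 without empty-vector non-Tfh replicate 2. In Tfh cells both Bach2 libraries lay above both empty-vector libraries for 23 of the 48 members, and for 21.7% of all tested genes; they lay below both for 10 members, and for 22.9% of all tested genes. In non-Tfh cells the same held for 15 members above (20.9% of all tested genes) and 5 members below (21.3% of all tested genes). At an unadjusted p below 0.05 the members numbered 19 in Tfh cells, where 15.9% of all tested genes passed that mark, 7 in non-Tfh cells (10.4% of all tested genes) and 25 for the mean effect (20.2% of all tested genes). The sign of the effect was the same in both cell types for 41 of 48 members, or 85.4%, and for 65.5% of all tested genes; the 2 vector effects share no library.

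Gene length moved with these effects. The members have long transcripts, with a median exon length of 7.32 kb against 4.34 kb for all tested genes, and 28 of the 48 fall in the longest quartile of tested genes and 0 in the shortest. In Tfh cells the median vector effect of all tested genes went up over the 4 length quartiles, at -0.084, -0.028, 0.024 and 0.079 on the log2 scale. In non-Tfh cells these medians were -0.038, -0.014, 0.0083 and 0.045. Within the longest quartile the members' median was 0.24 in Tfh cells and 0.16 in non-Tfh cells, above that of all tested genes of that quartile. Within quartiles 2 and 3 it was -0.062 and 0.017 in Tfh cells and -0.051 and -0.0053 in non-Tfh cells. Each of these lay below the median of all tested genes of the same quartile. With a smooth trend over exon length removed from each library, the members' median was 0.04 in Tfh cells, 0.047 in non-Tfh cells and 0.065 for the mean effect. Of the 6 members called for the mean effect, Cbx7 was no longer called after that step (adjusted p = 0.0516) and the other 5 were.

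**Figure D2:**
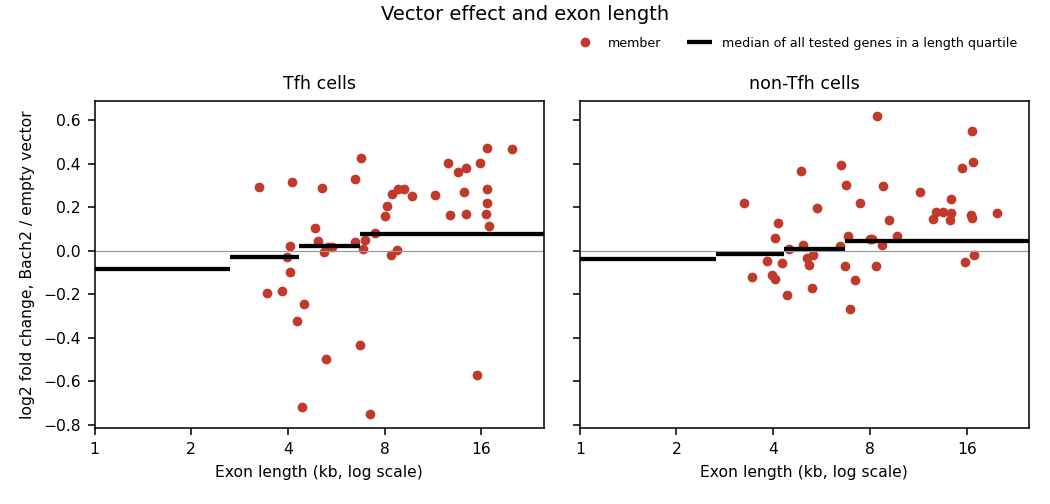
Log2 fold change of Bach2 over empty vector for each of the 48 members (points) against exon length in kb (log scale), in Tfh cells (left) and non-Tfh cells (right). Black bars are the medians of all tested genes in the 4 length quartiles, cut at the ends of the axis; in Tfh cells they climb over the quartiles, with -0.084 in the shortest and 0.079 in the longest, and most members above 0.2 lie among the longest genes.

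**Figure D3:**
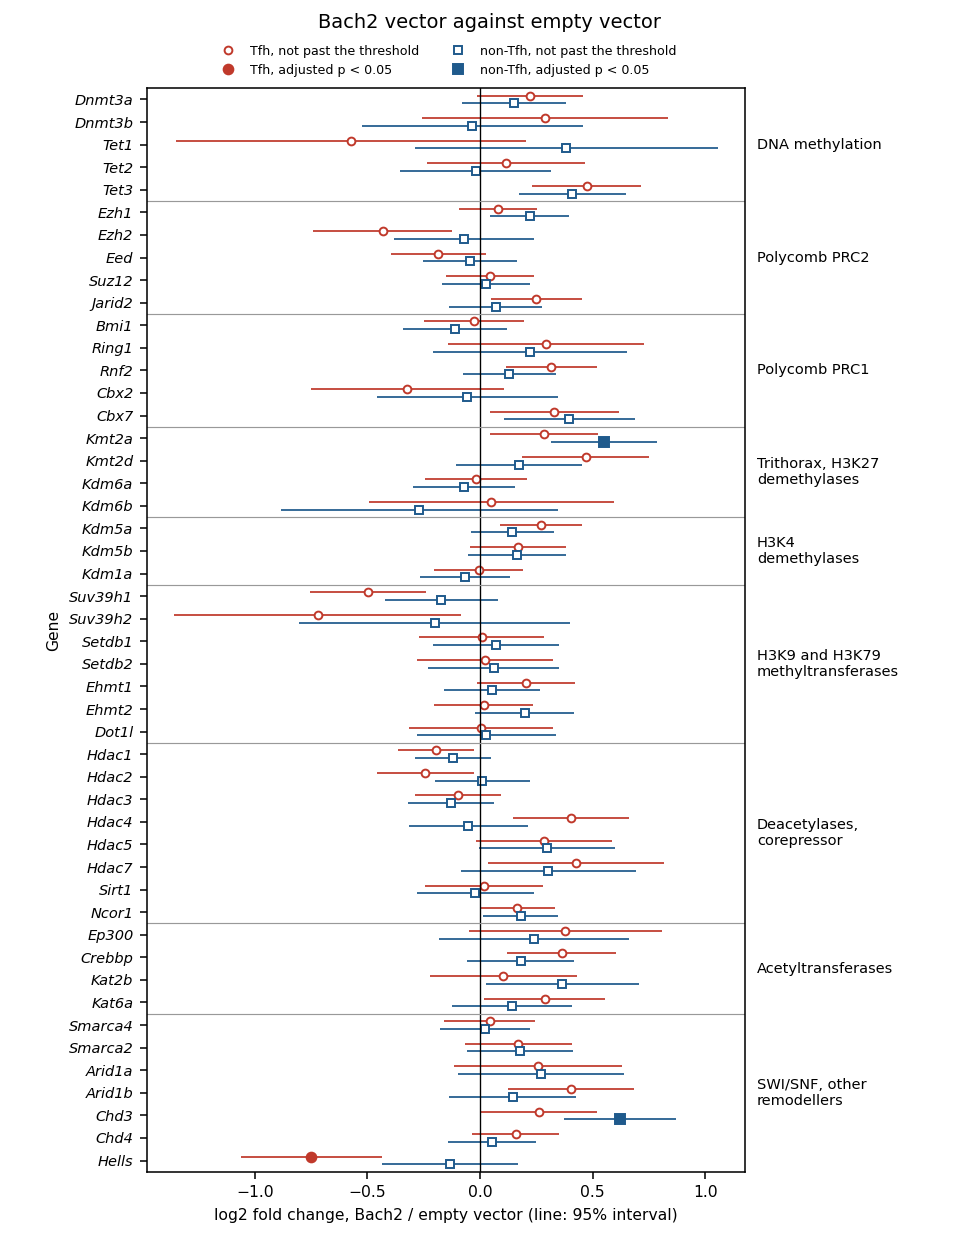
Log2 fold change of Bach2 over empty vector for the 48 members, with 95% intervals, in Tfh cells (red circles) and non-Tfh cells (blue squares); filled symbols passed adjusted p below 0.05. Filled symbols are Hells in Tfh cells and Chd3 and Kmt2a in non-Tfh cells. Of the 48 Tfh values 35 lie above 0, against 49.9% of all tested genes.

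The second question is how Tfh and non-Tfh cells differ in these genes. With the Bach2 vector, 15 of the 48 members passed the threshold: Kdm6b, Bmi1, Rnf2, Hdac4, Jarid2, Kdm5b and Ezh1 were higher in Tfh cells, and Tet1, Hells, Chd3, Cbx2, Suv39h1, Setdb2, Kmt2a and Eed were lower. With the empty vector, 9 passed: Bmi1, Kdm6b, Rnf2, Kat2b, Ezh1, Kdm5b and Jarid2 were higher in Tfh cells, and Dnmt3b and Tet2 were lower. The 6 members that passed in both (Bmi1, Rnf2, Kdm6b, Ezh1, Jarid2 and Kdm5b) were higher in Tfh cells each time. The share of all tested genes that passed in both was not counted, so this number has no background to be read against. As a background, 24.4% of all tested genes passed with the Bach2 vector (11.6% higher and 12.7% lower) and 21.9% with the empty vector (10.6% higher and 11.3% lower). The members' shares were 31.2% with the Bach2 vector and 18.8%, below that background, with the empty vector, and their median log2 fold changes were -0.05 in both cases. The sign of that median rested on single libraries: with the Bach2 vector it was 0.084 without Bach2 non-Tfh replicate 2, 0.0045 without Bach2 Tfh replicate 1 and -0.14 without Bach2 non-Tfh replicate 1, and with the empty vector it was 0.02 without empty-vector non-Tfh replicate 2. The Tfh comparisons share no library with each other, but each shares libraries with both vector comparisons.

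**Figure D4:**
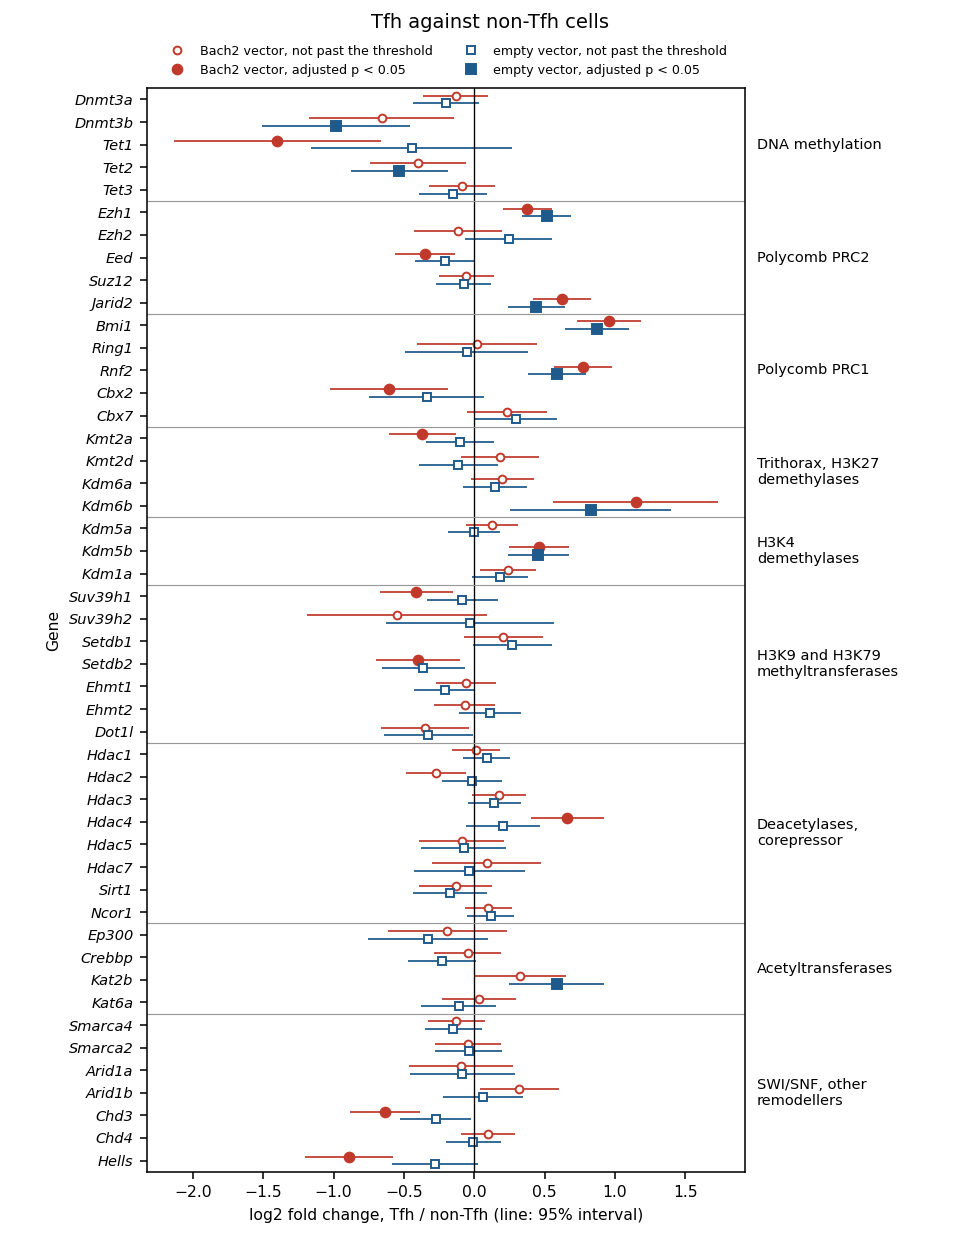
Log2 fold change of Tfh over non-Tfh cells for the 48 members, with 95% intervals, with the Bach2 vector (red circles) and the empty vector (blue squares); filled symbols passed adjusted p below 0.05. Bmi1, at 0.96 and 0.87, has both symbols filled far above 0, and the 5 DNA methylation genes at the top all have both symbols below 0.

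The third question, whether the vector effect differed between the cell types, gave no call. The interaction term passed for 0 of the 48 members and for 0% of all tested genes in edgeR, and DESeq2 called 0 members and 4 of all tested genes. At an unadjusted p below 0.05 there were 3 members, where 4.7% of all tested genes passed. These 3 were Hells, with a difference (Tfh effect minus non-Tfh effect) of -0.61 (adjusted p = 0.864, SE 0.202), Hdac4 at 0.46 (adjusted p = 0.939, SE 0.172) and Chd3 at -0.36 (adjusted p = 0.998, SE 0.166). So Hells in Tfh cells and Chd3 and Kmt2a in non-Tfh cells were called in 1 cell type each, and the test of the difference did not pass for any of them.

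Among the DNA methylation genes, Tet3, which oxidises methylated cytosine, was the member that rose with the smallest p for the mean effect. It lies at chr6:83362373-83459084 (GRCm38). Tet3 had 83.4 and 86.5 CPM in Bach2 Tfh cells, against 62.7 and 59.5 CPM in empty-vector Tfh cells. Tet3 stood at 81.9 and 98.4 CPM in Bach2 non-Tfh cells and at 70.4 and 65.4 CPM in empty-vector non-Tfh cells. Both Bach2 libraries exceeded both empty-vector libraries in each cell type. The log2 fold change was 0.47 (SE 0.112) in Tfh cells. There the adjusted p of 0.05 just missed the threshold, and passed it with RLE scaling, no filter on low counts or DESeq2. With the length trend removed, the Tfh effect was 0.33 (adjusted p = 0.13). The effect was 0.41 (adjusted p = 0.14, SE 0.111) in non-Tfh cells and 0.44 (adjusted p = 0.00744, SE 0.0788) for the mean. The mean effect stayed past the threshold in every alternative setting run, leaving out any one library included, with an adjusted p of at most 0.0464; with the length trend removed it was 0.32.

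Of the other DNA methylation genes, Dnmt3b and Tet2 passed between cell types with the empty vector and Tet1 with the Bach2 vector. Dnmt3b, a de novo DNA methyltransferase, had 8.02 and 11.3 CPM in Bach2 Tfh cells, against 7.72 and 8.09 CPM in empty-vector Tfh cells. Dnmt3b stood at 12.8 and 17.7 CPM in Bach2 non-Tfh cells and at 13.5 and 17.7 CPM in empty-vector non-Tfh cells. All 4 Tfh values lay below all 4 non-Tfh values, with a log2 fold change of Tfh over non-Tfh of -0.66 (adjusted p = 0.0605, SE 0.239) with the Bach2 vector and of -0.98 (adjusted p = 0.0101, SE 0.245) with the empty vector. The empty-vector call was lost without empty-vector Tfh replicate 1 or empty-vector non-Tfh replicate 2 (adjusted p up to 0.122).

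Tet2, another of the cytosine oxidases, had 24.0 and 27.9 CPM in Bach2 Tfh cells, against 24.3 and 23.5 CPM in empty-vector Tfh cells. Tet2 stood at 29.5 and 38.6 CPM in Bach2 non-Tfh cells and at 32.4 and 36.8 CPM in empty-vector non-Tfh cells. Its 4 Tfh libraries again lay below its 4 non-Tfh libraries, with log2 fold changes of -0.40 (adjusted p = 0.087, SE 0.159) with the Bach2 vector and -0.53 (adjusted p = 0.0282, SE 0.16) with the empty vector, and the empty-vector call was lost when any one of the 4 empty-vector libraries was left out (adjusted p up to 0.209). Tet1, the lowest member per kb, had 3.04 and 2.53 CPM in Bach2 Tfh cells, against 4.71 and 3.54 CPM in empty-vector Tfh cells. Tet1 stood at 9.16 and 5.65 CPM in Bach2 non-Tfh cells and at 6.54 and 4.78 CPM in empty-vector non-Tfh cells. With the Bach2 vector it was lower in Tfh cells, at -1.40 (adjusted p = 0.00801, SE 0.342), a call lost without Bach2 non-Tfh replicate 1 (adjusted p = 0.0987), and with the empty vector it was -0.45 (adjusted p = 0.386, SE 0.332). Dnmt3a, the de novo methyltransferase with the highest level per kb in this class, had 82.3 and 82.8 CPM in Bach2 Tfh cells, against 76.8 and 64.6 CPM in empty-vector Tfh cells. Dnmt3a stood at 87.1 and 93.5 CPM in Bach2 non-Tfh cells and at 84.8 and 77.9 CPM in empty-vector non-Tfh cells. It passed in no comparison, and the effect of the vector was 0.22 (95% interval -0.01 to 0.46) in Tfh cells. All 5 genes of the class had a negative log2 fold change of Tfh over non-Tfh in both vector groups, with a median of -0.40 with the Bach2 vector and -0.45 with the empty vector. Of all tested genes, 50.1% had a positive one with the Bach2 vector and 50.7% with the empty vector. Of 13 other DNA methylation genes tested, outside the members, 6 had a positive one and 7 a negative one with each vector. Their medians were -0.14 with the Bach2 vector and -0.09 with the empty vector, so the shared sign holds for the 5 members only.

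Of the PRC2 genes none passed in a vector comparison, and their median vector effects were 0.046 in Tfh cells and 0.028 in non-Tfh cells. Ezh1, the catalytic subunit that resting cells use, had 189 and 203 CPM in Bach2 Tfh cells, against 188 and 183 CPM in empty-vector Tfh cells. Ezh1 stood at 150.3 and 152 CPM in Bach2 non-Tfh cells and at 131 and 128 CPM in empty-vector non-Tfh cells. Every Tfh library exceeded every non-Tfh library, with 0.38 (adjusted p = 0.00354, SE 0.081) with the Bach2 vector and 0.52 (adjusted p = 0.000392, SE 0.0816) with the empty vector. Jarid2, which recruits PRC2 to its targets, had 222 and 225 CPM in Bach2 Tfh cells, against 202 and 173 CPM in empty-vector Tfh cells. Jarid2 stood at 137 and 154 CPM in Bach2 non-Tfh cells and at 142 and 135 CPM in empty-vector non-Tfh cells. It was higher in Tfh cells by 0.62 (adjusted p = 0.000263, SE 0.095) with the Bach2 vector and by 0.44 (adjusted p = 0.0041, SE 0.0954) with the empty vector, and the empty-vector call was lost without empty-vector Tfh replicate 1 (adjusted p = 0.066).

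Eed, the subunit that binds methylated lysine 27, had 83.0 and 88.8 CPM in Bach2 Tfh cells, against 93.5 and 102 CPM in empty-vector Tfh cells. Eed stood at 115 and 104 CPM in Bach2 non-Tfh cells and at 108 and 118 CPM in empty-vector non-Tfh cells. It was lower in Tfh cells with the Bach2 vector, at -0.35 (adjusted p = 0.0179, SE 0.0985), a call lost without replicate 1 of either Bach2 group (adjusted p up to 0.131), and was at -0.21 (adjusted p = 0.148, SE 0.0979) with the empty vector. Suz12, the scaffold, had 167 and 186 CPM in Bach2 Tfh cells, against 173 and 169 CPM in empty-vector Tfh cells. Suz12 stood at 185 and 182 CPM in Bach2 non-Tfh cells and at 168 and 192 CPM in empty-vector non-Tfh cells. Its groups overlapped in every comparison. Ezh2, the catalytic subunit of dividing cells, averaged 77.1 ± 14.6 CPM in Bach2 Tfh cells and 104 ± 13.4 CPM in empty-vector Tfh cells (SD, n = 2 each). Its vector effect there, -0.43 (adjusted p = 0.155, SE 0.143), missed the threshold, and in non-Tfh cells it was -0.07 (adjusted p = 0.929, SE 0.142).

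The PRC1 genes held the member with the smallest p of the Tfh comparisons. Bmi1, the ring finger partner of the PRC1 ligases, had 104 and 99.1 CPM in Bach2 Tfh cells, against 106 and 101 CPM in empty-vector Tfh cells. Bmi1 stood at 50.2 and 54.2 CPM in Bach2 non-Tfh cells and at 60.0 and 52.6 CPM in empty-vector non-Tfh cells. All 4 Tfh values were above 99 CPM and all 4 non-Tfh values were at or below 60.0 CPM, with 0.96 (adjusted p = 1.71e-05, SE 0.106) with the Bach2 vector and 0.87 (adjusted p = 3.75e-05, SE 0.105) with the empty vector. Its vector effects were -0.03 (95% interval -0.25 to 0.19, adjusted p = 0.929) in Tfh cells and -0.11 (95% interval -0.34 to 0.12, adjusted p = 0.802) in non-Tfh cells.

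Rnf2, the ubiquitin ligase that works with Bmi1, had 163 and 154 CPM in Bach2 Tfh cells, against 134 and 120.3 CPM in empty-vector Tfh cells. Rnf2 stood at 94.9 and 91.0 CPM in Bach2 non-Tfh cells and at 89.2 and 80.5 CPM in empty-vector non-Tfh cells. All Tfh libraries exceeded all non-Tfh libraries, by 0.77 (adjusted p = 4.46e-05, SE 0.0952) with the Bach2 vector and 0.59 (adjusted p = 0.000512, SE 0.0961) with the empty vector. The calls for Bmi1, Rnf2 and Ezh1 passed in every alternative run for both vectors. With Bach2, Rnf2 was above both empty-vector libraries in each cell type, at a log2 fold change of 0.32 (adjusted p = 0.109, SE 0.0941) in Tfh cells and 0.13 (adjusted p = 0.706, SE 0.0967) in non-Tfh cells, which did not pass. The opposite-strand gene Trmt1l, at 80.0 CPM, shares 3.83% of the exon bases of Rnf2.

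Cbx7, a chromodomain subunit that reads methylated lysine 27, lies at chr15:79915807-79971119 and had 42.1 and 46.1 CPM in Bach2 Tfh cells, against 35.3 and 34.8 CPM in empty-vector Tfh cells. Cbx7 stood at 34.3 and 40.7 CPM in Bach2 non-Tfh cells and at 29.5 and 27.5 CPM in empty-vector non-Tfh cells. Both Bach2 libraries lay above both empty-vector libraries in each cell type, and the mean effect was 0.36 (adjusted p = 0.0411, SE 0.0949). That call was lost when any one of the 4 empty-vector libraries, Bach2 Tfh replicate 2 or Bach2 non-Tfh replicate 2 was left out (adjusted p up to 0.18). Apobec3, on the opposite strand and at 309 CPM, shares 1.54% of its exon bases. Cbx2, another reader, had 10.8 and 9.65 CPM in Bach2 Tfh cells, against 12.4 and 13.3 CPM in empty-vector Tfh cells. Cbx2 stood at 13.6 and 17.6 CPM in Bach2 non-Tfh cells and at 16.3 and 16.1 CPM in empty-vector non-Tfh cells. With the Bach2 vector it was lower in Tfh cells, at -0.60 (adjusted p = 0.0367, SE 0.196), but not in DESeq2, with only the compared groups in the fit or without any one of 5 libraries: either Bach2 Tfh library, either empty-vector non-Tfh library, or Bach2 non-Tfh replicate 2 (adjusted p up to 0.286). Ring1, the sister ligase of Rnf2, passed in no comparison and averaged 19.3 ± 2.66 CPM in Bach2 Tfh and 15.6 ± 3.53 CPM in empty-vector Tfh cells (SD, n = 2 each).

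In the Trithorax class, Kmt2a, the MLL methyltransferase of histone H3 lysine 4 at promoters, lies at chr9:44803355-44881296. Kmt2a had 59.7 and 67.9 CPM in Bach2 Tfh cells, against 53.1 and 51.6 CPM in empty-vector Tfh cells. Kmt2a stood at 78.2 and 86.4 CPM in Bach2 non-Tfh cells and at 56.1 and 56.3 CPM in empty-vector non-Tfh cells. The 2 Bach2 non-Tfh libraries stood above the other 6, and in Tfh cells, too, the vector groups did not overlap. The log2 fold change was 0.55 (adjusted p = 0.0307, SE 0.11) in non-Tfh cells, 0.28 (adjusted p = 0.224, SE 0.112) in Tfh cells and 0.42 (adjusted p = 0.00962, SE 0.0785) for the mean. The non-Tfh call was lost when any one of the 4 non-Tfh libraries was left out, with an adjusted p of 0.0512 to 0.29, while the mean effect passed in every alternative (adjusted p of at most 0.0479). With the length trend removed, the values were 0.45 in non-Tfh and 0.14 in Tfh cells. Under the Bach2 vector Kmt2a was lower in the Tfh group, at -0.37 (adjusted p = 0.0245, SE 0.11), and with the empty vector the difference was -0.10 (adjusted p = 0.58, SE 0.112). The Bach2 call was lost without Bach2 Tfh replicate 1 or Bach2 non-Tfh replicate 2, and with only the compared groups in the fit (adjusted p up to 0.173).

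Kmt2d, the MLL enzyme of enhancers, did not pass for the vector; it averaged 109.7 ± 14.1 CPM in Bach2 Tfh and 79.3 ± 4.66 CPM in empty-vector Tfh cells (SD, n = 2 each), with 0.47 (adjusted p = 0.0913, SE 0.13). Kdm6b, a demethylase of histone H3 lysine 27 known to be induced by activation, had 12.6 and 9.41 CPM in Bach2 Tfh cells, against 12.4 and 8.72 CPM in empty-vector Tfh cells. Kdm6b stood at 4.91 and 5.03 CPM in Bach2 non-Tfh cells and at 6.86 and 5.11 CPM in empty-vector non-Tfh cells. All Tfh values lay above all non-Tfh values, with 1.15 (adjusted p = 0.00666, SE 0.272) with the Bach2 vector and 0.83 (adjusted p = 0.0397, SE 0.267) with the empty vector. The Bach2 call was lost without Bach2 Tfh replicate 1 (adjusted p = 0.0704), and the empty-vector call in DESeq2 and without empty-vector Tfh replicate 1 or either empty-vector non-Tfh library (adjusted p up to 0.341). Kdm6a, the X-linked demethylase of the same mark, had 128 and 163 CPM in Bach2 Tfh cells, against 152 and 142 CPM in empty-vector Tfh cells. Kdm6a stood at 127 and 127 CPM in Bach2 non-Tfh cells and at 136 and 130.0 CPM in empty-vector non-Tfh cells. It passed in no comparison.

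The demethylases of histone H3 lysine 4 passed in no vector comparison. Kdm5b, which removes the mark at promoters, had 146 and 155 CPM in Bach2 Tfh cells, against 140.2 and 127 CPM in empty-vector Tfh cells. Kdm5b stood at 99.5 and 119 CPM in Bach2 non-Tfh cells and at 97.0 and 97.9 CPM in empty-vector non-Tfh cells. It was higher in Tfh cells with each vector, at 0.46 (adjusted p = 0.00379, SE 0.10) with Bach2 and 0.46 (adjusted p = 0.00489, SE 0.101) with the empty vector; these calls were lost without Bach2 non-Tfh replicate 1 (adjusted p = 0.0546) and without empty-vector Tfh replicate 1 (adjusted p = 0.0571). Kdm1a, known as LSD1, had 155 and 139 CPM in Bach2 Tfh cells, against 153 and 142 CPM in empty-vector Tfh cells. Kdm1a stood at 121 and 128 CPM in Bach2 non-Tfh cells and at 124 and 137 CPM in empty-vector non-Tfh cells. Its vector effects were -0.01 (95% interval -0.20 to 0.19, adjusted p = 0.984) in Tfh cells and -0.07 (95% interval -0.27 to 0.13, adjusted p = 0.884) in non-Tfh cells. Kdm5a, the third of them, averaged 227 ± 13.1 CPM in Bach2 Tfh cells and 188 ± 11.4 CPM in empty-vector Tfh cells (SD, n = 2 each), a difference of 0.27 (adjusted p = 0.128, SE 0.0855) that did not pass.

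Among the H3K9 methyltransferases, Suv39h1, which trimethylates histone H3 lysine 9 in heterochromatin, lies at chrX:8061171-8074760 and had 33.3 and 33.8 CPM in Bach2 Tfh cells, against 45.2 and 49.6 CPM in empty-vector Tfh cells. Suv39h1 stood at 44.6 and 44.6 CPM in Bach2 non-Tfh cells and at 51.6 and 48.8 CPM in empty-vector non-Tfh cells. The 2 Bach2 Tfh libraries were the lowest of the 8, and both Bach2 non-Tfh libraries also lay below both of their empty-vector libraries. The log2 fold change was -0.50 (adjusted p = 0.0543, SE 0.12) in Tfh cells, where it passed the threshold with a stricter filter, no filter, DESeq2 or the length trend removed. It was -0.17 (adjusted p = 0.676, SE 0.117) in non-Tfh cells and -0.33 (adjusted p = 0.0357, SE 0.0839) for the mean, and the mean call held with the length trend removed but not when any one library other than empty-vector Tfh replicate 1 was left out (adjusted p up to 0.133). With the Bach2 vector it was lower in Tfh cells, at -0.41 (adjusted p = 0.0221, SE 0.12), a call lost with any one Bach2 library left out or with only the compared groups in the fit (adjusted p up to 0.0882), against -0.09 (adjusted p = 0.668, SE 0.117) with the empty vector. An antisense gene, Gm14820, overlaps 14.6% of its exon bases and was listed at 0.0127 CPM.

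Setdb2, a less studied enzyme of this class, had 27.2 and 33.5 CPM in Bach2 Tfh cells, against 30.4 and 29.3 CPM in empty-vector Tfh cells. Setdb2 stood at 41.4 and 38.6 CPM in Bach2 non-Tfh cells and at 37.5 and 39.2 CPM in empty-vector non-Tfh cells. With the Bach2 vector it was lower in Tfh cells, at -0.40 (adjusted p = 0.0484, SE 0.138), close to the threshold, and the call was lost in 11 of 16 alternatives, DESeq2 and the removal of any one library other than Bach2 Tfh replicate 2 included (adjusted p up to 0.306). Ehmt2, or G9a, which dimethylates lysine 9, had 98.2 and 94.7 CPM in Bach2 Tfh cells, against 91.9 and 99.0 CPM in empty-vector Tfh cells. Ehmt2 stood at 94.9 and 107 CPM in Bach2 non-Tfh cells and at 83.4 and 92.9 CPM in empty-vector non-Tfh cells. No comparison passed for it. Suv39h2, Setdb1, Ehmt1 and the lysine 79 methyltransferase Dot1l did not pass either, with vector effects of -0.72 for Suv39h2, 0.01 for Setdb1, 0.20 for Ehmt1 and 0.00 for Dot1l in Tfh cells. Suv39h2 was the largest of these but rested on 3.14 and 4.34 CPM in Bach2 Tfh cells, against 6.11 and 6.19 CPM in empty-vector Tfh cells, with an adjusted p of 0.25.

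Of the 8 genes in the class of deacetylases with a corepressor none passed for the vector. Hdac1 had 244 and 244 CPM in Bach2 Tfh cells, against 270.2 and 289 CPM in empty-vector Tfh cells. Hdac1 stood at 247 and 237 CPM in Bach2 non-Tfh cells and at 267 and 259 CPM in empty-vector non-Tfh cells. Both Bach2 libraries lay below both empty-vector libraries in each cell type, with a log2 fold change of -0.20 (adjusted p = 0.233, SE 0.0781) in Tfh cells and -0.12 (adjusted p = 0.659, SE 0.078) in non-Tfh cells. Hdac4, a class IIa deacetylase that binds MEF2 factors, had 71.2 and 66.8 CPM in Bach2 Tfh cells, against 49.6 and 54.9 CPM in empty-vector Tfh cells. Hdac4 stood at 47.0 and 40.3 CPM in Bach2 non-Tfh cells and at 43.9 and 46.6 CPM in empty-vector non-Tfh cells. The 2 Bach2 Tfh libraries were the highest. With the Bach2 vector Hdac4 was higher in Tfh cells, at 0.66 (adjusted p = 0.00114, SE 0.121), in every alternative run; with the empty vector the difference was 0.21 (adjusted p = 0.266, SE 0.122), and the vector effect in Tfh cells was 0.40 (adjusted p = 0.109, SE 0.121). The genome annotation places the opposite-strand lincRNA Gm26720 over 22.4% of the exon bases of Hdac4; it was itself listed at 1.65 CPM.

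Hdac2, Hdac3, Hdac5, Hdac7, Sirt1 and the corepressor Ncor1, which holds Hdac3 at its targets, passed in no comparison. In Tfh cells their vector effects were -0.24 for Hdac2, -0.10 for Hdac3, 0.28 for Hdac5, 0.43 for Hdac7, 0.02 for Sirt1 and 0.17 for Ncor1. Sirt1, the NAD-dependent deacetylase, averaged 40.9 ± 3.28 CPM in Bach2 Tfh, 40.5 ± 1.56 CPM in empty-vector Tfh, 44.9 ± 1.98 CPM in Bach2 non-Tfh and 45.6 ± 0.491 CPM in empty-vector non-Tfh cells (SD, n = 2 each).

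The 4 acetyltransferases all had positive vector effects in both cell types, and none passed. Of all tested genes, 49.9% had a positive effect in Tfh cells and 50.1% in non-Tfh cells. Ep300 had 85.4 and 112 CPM in Bach2 Tfh cells, against 85.7 and 65.7 CPM in empty-vector Tfh cells. Ep300 stood at 94.2 and 131 CPM in Bach2 non-Tfh cells and at 95.3 and 95.4 CPM in empty-vector non-Tfh cells. Its vector effect was 0.38 (adjusted p = 0.373, SE 0.19) in Tfh cells. Its close relative Crebbp averaged 96.7 ± 3.37 CPM in Bach2 Tfh and 75.1 ± 4.71 CPM in empty-vector Tfh cells (SD, n = 2 each), a difference of 0.36 (adjusted p = 0.122, SE 0.112). Kat6a, or MOZ, was at 0.29 (adjusted p = 0.277, SE 0.124) in Tfh cells. Kat2b, or PCAF, had 28.2 and 32.5 CPM in Bach2 Tfh cells, against 26.2 and 30.3 CPM in empty-vector Tfh cells. Kat2b stood at 22.9 and 25.5 CPM in Bach2 non-Tfh cells and at 17.5 and 20.0 CPM in empty-vector non-Tfh cells. With the empty vector it was higher in Tfh cells, at 0.59 (adjusted p = 0.0157, SE 0.157), a call lost without empty-vector Tfh replicate 2 or empty-vector non-Tfh replicate 1 (adjusted p up to 0.133), and with the Bach2 vector it was 0.32 (adjusted p = 0.147, SE 0.153). A processed pseudogene of Kat2b was listed at 0.0135 CPM.

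The class of SWI/SNF and other remodellers held the largest vector effects that passed, with Chd3 up and Hells down. Chd3, an ATPase of the NuRD complex, lies at chr11:69343273-69369406 and had 52.4 and 61.1 CPM in Bach2 Tfh cells, against 47.6 and 46.9 CPM in empty-vector Tfh cells. Chd3 stood at 81.9 and 94.0 CPM in Bach2 non-Tfh cells and at 58.0 and 56.4 CPM in empty-vector non-Tfh cells. The 2 Bach2 non-Tfh libraries were above all others, and the Bach2 Tfh libraries were above the empty-vector Tfh libraries. The log2 fold change was 0.62 (adjusted p = 0.0207, SE 0.116) in non-Tfh cells, 0.26 (adjusted p = 0.301, SE 0.119) in Tfh cells and 0.44 (adjusted p = 0.00962, SE 0.083) for the mean. Without either empty-vector non-Tfh library or Bach2 non-Tfh replicate 2 the non-Tfh call was lost (adjusted p of 0.174 to 0.234), and the mean call was lost without empty-vector non-Tfh replicate 2 (adjusted p = 0.0516). Between cell types Chd3 was lower in Tfh cells with the Bach2 vector, at -0.63 (adjusted p = 0.00112, SE 0.116), in every alternative run, and at -0.27 (adjusted p = 0.119, SE 0.119) with the empty vector.

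Hells lies at chr19:38930915-38971051 and had 49.6 and 39.7 CPM in Bach2 Tfh cells, against 69.7 and 80.8 CPM in empty-vector Tfh cells. Hells stood at 94.1 and 72.2 CPM in Bach2 non-Tfh cells and at 93.3 and 89.0 CPM in empty-vector non-Tfh cells. The 2 Bach2 Tfh libraries were the lowest of the 8, and in non-Tfh cells the vector groups overlapped. The log2 fold change was -0.75 (adjusted p = 0.0207, SE 0.146) in Tfh cells, -0.13 (adjusted p = 0.823, SE 0.14) in non-Tfh cells and -0.44 (adjusted p = 0.0245, SE 0.101) for the mean. Leaving out replicate 2 of Bach2 Tfh or of empty-vector Tfh ended the Tfh call (adjusted p of 0.152 and 0.185), and the mean call was also lost without either empty-vector non-Tfh library or Bach2 non-Tfh replicate 2 (adjusted p up to 0.101). Between cell types Hells was lower in Tfh cells with the Bach2 vector, at -0.89 (adjusted p = 0.000521, SE 0.145), in every alternative run, and at -0.28 (adjusted p = 0.185, SE 0.14) with the empty vector. The other remodellers did not pass in any comparison. Smarca4, the BRG1 ATPase of SWI/SNF, had 162 and 167 CPM in Bach2 Tfh cells, against 159.9 and 159.8 CPM in empty-vector Tfh cells. Smarca4 stood at 164 and 196 CPM in Bach2 non-Tfh cells and at 172 and 182 CPM in empty-vector non-Tfh cells. The vector effects were 0.04 (95% interval -0.16 to 0.24, adjusted p = 0.877) in Tfh cells and 0.02 (95% interval -0.18 to 0.22, adjusted p = 0.97) in non-Tfh cells. Smarca2, Arid1a, Arid1b and Chd4 had vector effects of 0.17, 0.26, 0.40 and 0.16 in Tfh cells, with adjusted p-values of 0.142 or more.

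**Figure D5:**
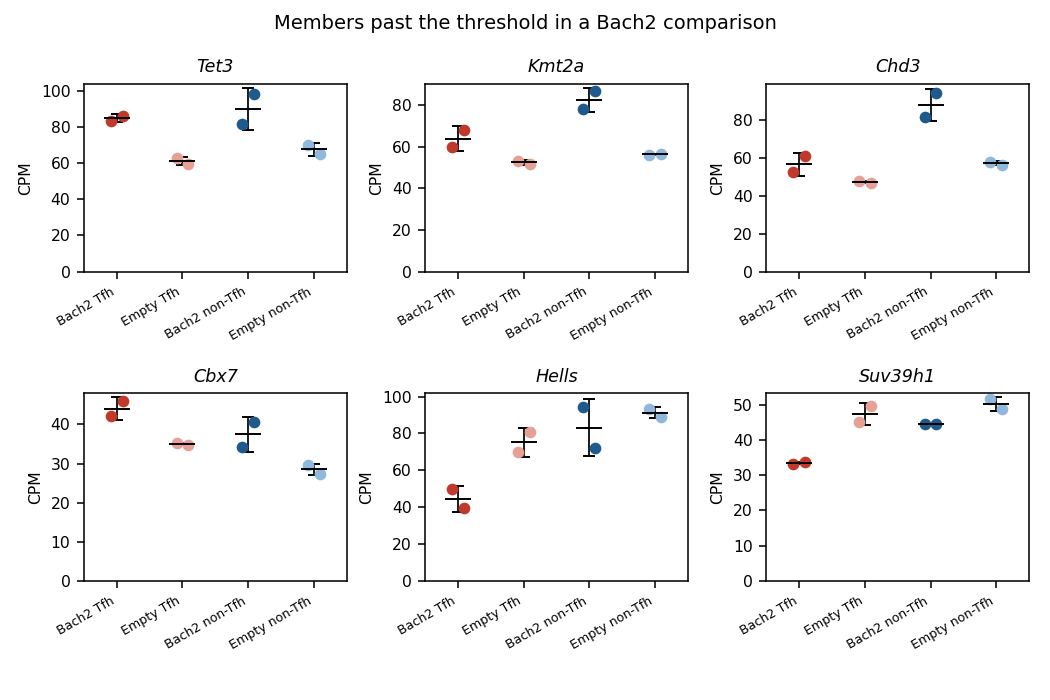
CPM of the 6 members that passed the threshold in a Bach2 comparison, in each library (points) of the 4 groups, with the group mean and SD (bars, n = 2 each). Tet3, Kmt2a, Chd3 and Cbx7 have both Bach2 libraries above both empty-vector libraries in each cell type, Hells is lowest in the 2 Bach2 Tfh libraries at 49.6 and 39.7 CPM, and Suv39h1 is lowest there at 33.3 and 33.8 CPM.

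Cell cycle genes moved with Hells, which is known to be higher in dividing cells, and with Suv39h1. None of the cell cycle genes counted here is a member. Of 27 S phase genes, 14 fell with Bach2 in Tfh cells, with a median log2 fold change of -0.58, and 0 passed in non-Tfh cells, with a median of -0.16. Of 26 mitosis genes, 17 fell in Tfh cells, with a median of -0.69, and 0 passed in non-Tfh cells, with a median of -0.15. Of all tested genes, 1.16% were called lower with Bach2 in Tfh cells and 0.619% in non-Tfh cells. In non-Tfh cells 25 of the S phase and 25 of the mitosis genes still had a negative effect. Both Bach2 libraries lay below both empty-vector libraries there for 17 and 11 of them, and for 21.3% of all tested genes. The interaction passed for 0 genes of either list. At an unadjusted p below 0.05 in that test there were 17 and 19, where 4.7% of all tested genes passed. The calls of these lists were not repeated gene by gene with a library left out. Without empty-vector Tfh replicate 2, fewer of all tested genes were called lower in Tfh cells than the mitosis calls alone, so some of those were lost. The number of all tested genes called lower also dropped without Bach2 Tfh replicate 2. The summed level of the S phase genes was 2599 and 2397 CPM in Bach2 Tfh libraries and 3393 and 3745 CPM in empty-vector Tfh libraries. It was 3525 and 3244 CPM in Bach2 non-Tfh libraries and 3735 and 3912 CPM in empty-vector non-Tfh libraries. The 2 Bach2 Tfh libraries thus had the lowest sums of the 8, as they did for Hells and Suv39h1. Between cell types, 21 S phase genes and 19 mitosis genes were lower in Tfh cells with the Bach2 vector, and 5 and 3 with the empty vector. The shares of all tested genes called lower there were 12.7% with the Bach2 vector and 11.3% with the empty vector. The part of cell division in the results of these genes was not tested.

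The promoters of the 4 members with the smallest p in a Bach2 comparison that the RefSeq promoter table (GRCm38.p6) holds are printed to show what lies at the start of genes that rose and genes that fell. Each runs from 250 bases before to 50 bases after a start site, 5′ to 3′ on the gene's strand, and capitals mark a motif match. Tet3 and Kmt2a rose, and their windows are chr6:83441629-83441928 (minus strand) and chr9:44881240-44881539 (minus strand). The Tet3 window lies inside the annotated gene, whose 5′ end is at chr6:83459084. It covers an internal start site, and the sequence at the 5′ end of Tet3 is not printed. Hells and Suv39h1 fell, and their windows are chr19:38930740-38931039 (plus strand) for Hells, chrX:8074711-8075010 (minus strand) for start 1 of Suv39h1 and chrX:8074312-8074611 (minus strand) for its start 2.
Tet3: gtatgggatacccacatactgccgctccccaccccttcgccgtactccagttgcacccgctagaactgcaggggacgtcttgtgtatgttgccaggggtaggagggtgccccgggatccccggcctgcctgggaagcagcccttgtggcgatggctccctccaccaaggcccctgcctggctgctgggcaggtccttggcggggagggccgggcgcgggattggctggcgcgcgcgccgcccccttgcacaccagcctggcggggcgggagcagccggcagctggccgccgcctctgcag
Kmt2a: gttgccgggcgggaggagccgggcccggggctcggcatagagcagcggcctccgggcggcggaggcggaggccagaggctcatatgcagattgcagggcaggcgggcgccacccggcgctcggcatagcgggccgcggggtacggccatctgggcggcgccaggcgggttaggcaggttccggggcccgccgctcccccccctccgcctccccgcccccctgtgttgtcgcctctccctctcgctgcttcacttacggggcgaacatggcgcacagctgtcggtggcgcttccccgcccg
Hells: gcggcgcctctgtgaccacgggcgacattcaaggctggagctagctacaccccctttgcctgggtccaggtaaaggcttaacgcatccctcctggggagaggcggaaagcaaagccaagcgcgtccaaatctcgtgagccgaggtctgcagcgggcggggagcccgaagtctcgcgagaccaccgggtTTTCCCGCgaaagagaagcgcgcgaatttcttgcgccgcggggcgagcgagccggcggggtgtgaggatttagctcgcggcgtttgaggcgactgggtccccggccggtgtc
Suv39h1 start 1: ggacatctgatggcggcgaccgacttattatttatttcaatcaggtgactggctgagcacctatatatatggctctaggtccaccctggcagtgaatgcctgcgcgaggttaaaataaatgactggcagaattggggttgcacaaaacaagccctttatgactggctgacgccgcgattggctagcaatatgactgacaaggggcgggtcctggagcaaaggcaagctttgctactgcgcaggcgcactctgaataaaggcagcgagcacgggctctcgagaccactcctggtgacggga
Suv39h1 start 2: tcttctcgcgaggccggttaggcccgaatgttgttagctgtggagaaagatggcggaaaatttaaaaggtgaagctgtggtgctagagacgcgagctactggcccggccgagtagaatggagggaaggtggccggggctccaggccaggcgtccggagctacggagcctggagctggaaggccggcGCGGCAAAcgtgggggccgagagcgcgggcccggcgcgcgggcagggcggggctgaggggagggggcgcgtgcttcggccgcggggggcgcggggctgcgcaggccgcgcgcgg

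Motifs were sought on both strands. The core TGAGTCA, which Bach and AP-1 factors bind, was in none of these 5 windows; it was in 1709 of 32851 promoters in the table, or 5.2%, and in 3 of 53 promoters of the 41 members with an entry, those of Hdac7, Kat2b and Smarca2. The E2F-type motif, taken as TTTCCCGC, TTTCGCGC, TTTGCCGC or TTTGGCGC, which cell cycle factors of the E2F family bind, was in 744 promoters, or 2.26%. It was in 5 of the 53 member promoters, those of Arid1a, Ezh2, Hells, Suv39h1 and Suz12. In Tfh cells their vector effects were 0.26 for Arid1a, -0.43 for Ezh2, -0.75 for Hells, -0.50 for Suv39h1 and 0.046 for Suz12. Only that of Hells passed the threshold, and the part of this motif was not tested. In Hells the match TTTCCCGC starts at position 189 of the window, and in start 2 of Suv39h1 the reverse complement of TTTGCCGC starts at position 187. A match is a description of these letters and not a measured site.

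A wider list of 149 other chromatin genes, 148 of them in the tables and 145 tested, was set beside the members. With Bach2, 1 gene rose and 1 fell in Tfh cells, only 1 passed in non-Tfh cells, where it rose, and 6 rose and 3 fell for the mean effect, which is 1.38%, 0.69% and 6.21% of the genes tested, where 1.71%, 0.871% and 5.27% of all tested genes passed. Its median vector effects were 0.08 in Tfh cells and 0.10 in non-Tfh cells. Scml4, a Polycomb-type gene, rose in both cell types: it averaged 23.3 ± 8.38 CPM in Bach2 Tfh cells and 9.70 ± 0.311 CPM in empty-vector Tfh cells, and 124 ± 11.4 CPM in Bach2 non-Tfh cells and 65.9 ± 1.56 CPM in empty-vector non-Tfh cells (SD, n = 2 each). Its log2 fold change was 1.25 (adjusted p = 0.0178, SE 0.218) in Tfh cells and 0.92 (adjusted p = 0.0298, SE 0.171) in non-Tfh cells, larger than that of any member that passed. No gene of the list was called higher in Tfh cells without empty-vector Tfh replicate 2 or Bach2 Tfh replicate 2. In non-Tfh cells none was called higher without either empty-vector Tfh, either empty-vector non-Tfh or either Bach2 non-Tfh library, so the calls of Scml4 were lost there. Uhrf1, which guides maintenance methylation to newly copied DNA, fell in Tfh cells, with 46.5 ± 1.18 CPM in Bach2 Tfh and 77.4 ± 7.60 CPM in empty-vector Tfh cells (SD, n = 2 each) and a log2 fold change of -0.73 (adjusted p = 0.00571, SE 0.105); that call was lost without empty-vector Tfh replicate 2. For the mean effect Chd6, a CHD remodeller, rose by 0.47 (adjusted p = 0.0289, SE 0.112).

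Between cell types, 10 genes of the wider list were higher and 9 lower in Tfh cells with the Bach2 vector, and 8 higher and 8 lower with the empty vector, or 13.1% and 11% of those tested, below the 24.4% and 21.9% of all tested genes. The empty-vector count of 16 was 5, all lower, without empty-vector non-Tfh replicate 2, 8 without empty-vector Tfh replicate 1 and 10 without empty-vector non-Tfh replicate 1. Scml4 was lower in Tfh cells by the largest amount, at -2.42 (adjusted p = 2.84e-06, SE 0.186) with the Bach2 vector and -2.76 (adjusted p = 2.2e-06, SE 0.206) with the empty vector. Under the Bach2 vector Uhrf1 was lower in the Tfh group, at -1.18 (adjusted p = 2.43e-06, SE 0.104). With the empty vector, too, its mean was lower in Tfh cells, at 77.4 ± 7.60 CPM against 109 ± 0.394 CPM in non-Tfh cells (SD, n = 2 each). Chd7, a remodeller known at enhancers, was lower in empty-vector Tfh cells, at -0.93 (adjusted p = 0.00221, SE 0.161). With the Bach2 vector Chd7 averaged 106 ± 26.3 CPM in Tfh and 157 ± 26.2 CPM in non-Tfh cells (SD, n = 2 each). Its relative Chd9 was higher in Tfh cells, at 0.93 (adjusted p = 0.000796, SE 0.162) with the Bach2 vector and 0.62 (adjusted p = 0.0152, SE 0.165) with the empty vector. The second call was lost without empty-vector non-Tfh replicate 2.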

How the data were processed

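RNA of sorted cells was amplified with a Smart-Seq v4 kit and tagmented with Nextera XT, per the labels' protocols, a method that does not mark strand. The authors deposited 1 table of whole-number read counts per gene and library; per the submitters' processing notes the build was GRCm38 (mm10) and TopHat2, Bowtie2 and featureCounts were used, with versions not given in the sources used here. Without strand, reads of overlapping genes on opposite strands cannot be told apart.

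From these counts, genes with at least 10 counts in enough libraries and 15 in all (edgeR's filterByExpr) were kept, 11475 of 39179. Libraries were scaled by TMM, and edgeR 4.0.16 (R 4.3.3) fitted robust quasi-likelihood models to all 8 libraries with 1 coefficient per group and 4 residual degrees of freedom. The 6 comparisons were: the Bach2 effect in Tfh cells, in non-Tfh cells and their mean, Tfh against non-Tfh cells under each vector, and the interaction. P-values were adjusted by Benjamini-Hochberg over all tested genes, with a threshold of 0.05. The biological coefficient of variation was 9.89%. Replicates of 1 group differed by more than counting noise (chi-square per degree of freedom 5.67 to 8.81). A value of 0 allows up to 3 counts, or 0.301 to 0.379 CPM. Names, exon lengths and overlaps came from GENCODE M21 by Ensembl ID (37693 IDs matched). Scripts were tested on simulated counts.

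Per-library values are given for each member past the threshold in at least 1 comparison and for the member of each class with the highest CPM per kb; of the wider list, up to 3 genes per comparison are named by size of change. The members and lists were chosen with earlier results of these data known. Alternatives were RLE scaling, library size only, no or a stricter filter, DESeq2 1.42.0, the compared groups alone, a replicate block, leaving out each library, and, chosen after seeing the data, removal of an exon length trend.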

Additional observations from a re-analysis of the deposited data

How the results depend on the processing

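Among 522 repeats of the 33 called values of single members, 448 kept their direction and their side of the threshold, 74 kept their direction without passing, and 0 reversed. These repeats include leaving out libraries that are not in the comparison, where the fold change itself can hardly move. The pooled counts therefore overstate how well calls hold when a compared library is left out. Members called for the vector in Tfh cells, 1 as reported, numbered 2 with RLE scaling, 9 with no filter on low counts, 2 with a stricter filter, 4 in DESeq2 and 2 with the length trend removed. For the mean effect the count of 6 became 16 with no filter. Leaving out 1 library at a time gave 0 to 4 members for the vector in Tfh cells, 0 to 2 in non-Tfh cells (2 as reported) and 2 to 11 for the mean effect. It gave 11 to 14 for Tfh against non-Tfh cells with the Bach2 vector (15 as reported), 4 to 9 with the empty vector (9 as reported) and 0 throughout for the interaction. The members added without a filter include Tet3, Kmt2d, Crebbp and Ezh2; the cause was not tested.

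Same-numbered libraries did not deviate together in all pairs of groups, and the main fit takes no pairing. Correlations were highest between Tfh and non-Tfh cells of the same vector, at 0.24 (Bach2) and 0.21 (empty vector). Across vectors they were -0.0041 to 0.13. A pairing of Tfh and non-Tfh libraries within each vector was not tested, and the replicate block, with 1 shift shared by all groups, does not model it. With that block 5 members passed in Tfh cells, 2 in non-Tfh cells and 11 for the mean effect. Between cell types 16 and 9 passed (Bach2 and empty vector), and 0 for the interaction. The block added Kmt2d, Ezh2, Tet3 and Suv39h1 in Tfh cells, Rnf2, Hdac7, Kmt2d, Crebbp and Kdm5a for the mean, and Dnmt3b between cell types with the Bach2 vector. Over all tested genes, leaving out 1 library gave 21 to 254 calls for the vector in Tfh cells (196 as reported), 17 to 133 in non-Tfh cells, 190.0 to 764 for the mean (605 as reported), and 1922 to 2735 and 1341 to 2698 between cell types with Bach2 and empty vector (2796 and 2515 as reported); the other settings gave 179 to 736, 94 to 332, 556 to 1255, 2364 to 3120 and 2122 to 2848 in the same order. The interaction had 0 calls as reported and up to 37 in other settings. The wider list had 2 to 14 calls in Tfh cells (2 as reported), 1 to 6 in non-Tfh cells (1 as reported) and 7 to 32 for the mean (9 as reported) in these settings, and 0 to 5, 0 to 1 and 3 to 20 when 1 library was left out. Between cell types it had 15 to 21 with the Bach2 vector (19 as reported) and 12 to 24 with the empty vector (16 as reported), and 13 to 19 and 5 to 20 when 1 library was left out. A fit to the compared groups alone gives no value for the mean effect and the interaction. With 2 libraries per group, effects of low genes such as Kdm6b, Tet1 and Suv39h2 have wide intervals.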
